A study of Mus musculus with 48 samples.

Results

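Immunoglobulin variable gene segments are the building blocks from which B cells assemble the antigen-binding part of an antibody. The members described here are all genes that the deposited count table lists under the biotype IG_V_gene, 213 of 55486 genes. They comprise 111 heavy-chain segments (Ighv) on chromosome 12, 99 kappa light-chain segments (Igkv) on chromosome 6 and 3 lambda light-chain segments (Iglv1, Iglv2 and Iglv3) on chromosome 16. Their start and end positions are identical to those of GENCODE release M21 on GRCm38.

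In a developing B cell of the bone marrow, a heavy-chain segment is joined by the RAG recombinase to a diversity and a joining segment, and a light-chain segment is joined to a joining segment. Heavy chains are assembled before light chains, so early pre-B cells carry a rearranged heavy-chain gene and no finished light chain. The joined segment is transcribed together with a constant gene such as Ighm or Igkc. Mature B cells, which fill much of the spleen, and plasma cells transcribe both chains at a high level. Unjoined segments are also transcribed at a low level before recombination.

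The study compared mice homozygous for a QPCTL knockout allele with wild-type littermates of the same C57/Bl6JR strain, all aged 10 to 15 weeks at baseline. QPCTL is a Golgi enzyme that forms pyroglutamate at protein ends. Whole spleen and whole bone marrow were taken from 8 mice each (4 knockout and 4 wild-type). Live CD45-negative cells were sorted 14 days after B16F10 melanoma inoculation from 12 tumours, 6 of them QPCTL-KO tumours in knockout hosts and 6 wild-type tumours in wild-type hosts. The count columns are named by tissue and a running number without genotype, so both genotypes are pooled in every group here and no genotype comparison was made. The 20 lymph node columns do not say which came from the 8 baseline and which from the 12 tumour-bearing animals, and they were not analysed here. The p-values below measure the spread between these samples and treat the columns as independent. The labels do not say whether spleen and marrow columns of the same running number come from 1 mouse. A fit with the running number as a block is given at the end.

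Column totals were 219229 to 626316 counts in spleen, 227240 to 637985 in bone marrow and 54117 to 510363 in tumour cells. Mature B cell markers, summed over 10 genes, were at 217 to 1745 CPM (counts per 1000000 counts of the column) in spleen, 70.3 to 274 CPM in marrow and 0 to 73.9 CPM in tumour cells, where 8 of the 10 were at 0. The granulocyte list of 8 genes was at 14921 to 38069 CPM in marrow and 86.7 to 1919 CPM in spleen. The melanoma list of 7 genes was at 1848 to 6343 CPM in tumour cells. Ptprc, which encodes CD45, was at 0 there. Spleen 6 and spleen 8 stood apart, with the lowest B cell marker sums of the spleen group (217 and 429 CPM). Spleen 6 also had the highest erythroid sum (5427 CPM) and spleen 8 the lowest (128 CPM). Without both, the lowest summed levels in spleen were 567 CPM for all members, 136 CPM for heavy-chain, 299 CPM for kappa and 132 CPM for lambda segments.

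The strand that the counts hold is not given in the sources used here and was not tested. The library kit keeps strand, and mt-Nd6, the mitochondrial coding gene on the light strand, was 37.7 to 277 times the median of 12 heavy-strand mitochondrial genes in every column. Only 2 members share exon bases with another annotated gene, Igkv2-137 with Gm42889 on the same strand and Ighv1-62-1 with Gm19331 on the other. Iglv1 lies within the span, though not the exons, of the antisense gene 2010309G21Rik on the opposite strand, and the span of Ighv1-5 overlaps that of Mir7094-2 on its own strand. Apex2 was at a mean of 4914 CPM in spleen, against 110 CPM for Alas2, which overlaps it on the opposite strand. Pmel, a gene of the melanoma list that overlaps Cdk2 and Dgka on the opposite strand, was at a mean of 178 CPM in spleen. Segment values below therefore count reads placed on the segment, and which strand these came from was not tested. Levels, chain shares and ratios to constant genes are thus not shown to be those of sense antibody RNA. The same limit holds for the levels of constant genes and of the marker and pathway lists.

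The 10 segments on which the results turn are shown by the last 90 coding bases of the variable exon, 5′ to 3′ in the sense of the gene, from GENCODE M21 transcripts. Capitals mark the letters TANNNNTGT, which hold a tyrosine codon and the conserved cysteine codon near the end of the variable segment. This motif, searched on the sense strand, is in the same stretch of 178 of the 213 members (83.6%), and in the reading here the last match is marked. The first 3 are the lambda segments, which show how far Iglv3 lies from its neighbours. The next 5 are the heavy-chain segment with the highest mean in spleen (Ighv1-9) and segments with more reads in marrow, and the last pair are the leading kappa segments.
Iglv3: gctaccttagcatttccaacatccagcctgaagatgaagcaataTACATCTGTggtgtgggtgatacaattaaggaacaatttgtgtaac
Iglv1: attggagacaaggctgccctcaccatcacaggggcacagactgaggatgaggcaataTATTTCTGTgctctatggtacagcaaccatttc
Iglv2: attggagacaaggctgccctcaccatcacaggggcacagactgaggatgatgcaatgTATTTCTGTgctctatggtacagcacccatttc
Ighv1-9: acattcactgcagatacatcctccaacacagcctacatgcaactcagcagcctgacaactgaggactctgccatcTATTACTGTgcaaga
Ighv1-52: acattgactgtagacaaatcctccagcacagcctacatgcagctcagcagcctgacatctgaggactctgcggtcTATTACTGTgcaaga
Ighv1-69: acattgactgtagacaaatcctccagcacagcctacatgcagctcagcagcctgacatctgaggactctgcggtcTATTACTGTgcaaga
Ighv1-74: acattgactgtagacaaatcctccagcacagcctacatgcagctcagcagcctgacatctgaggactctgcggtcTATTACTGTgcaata
Ighv8-4: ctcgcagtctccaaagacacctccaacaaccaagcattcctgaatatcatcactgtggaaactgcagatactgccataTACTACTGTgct
Igkv12-46: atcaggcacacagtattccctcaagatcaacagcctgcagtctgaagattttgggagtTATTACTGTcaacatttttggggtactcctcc
Igkv19-93: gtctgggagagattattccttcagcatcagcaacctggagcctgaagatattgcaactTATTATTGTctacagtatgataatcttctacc

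All 10 stretches lie on the minus strand of GRCm38. The lambda stretches are at chr16:19241207-19241296 (Iglv3), chr16:19085017-19085106 (Iglv1) and chr16:19260401-19260490 (Iglv2). The heavy-chain stretches are at chr12:114583569-114583658 (Ighv1-9), chr12:115145487-115145576 (Ighv1-52), chr12:115623161-115623250 (Ighv1-69), chr12:115802648-115802737 (Ighv1-74) and chr12:115024026-115024115 (Ighv8-4). The kappa stretches are at chr6:69764523-69764612 (Igkv12-46) and chr6:68736297-68736386 (Igkv19-93).

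Reads of 50 bases can be shared between near-identical segments. The median identity of a member's coding sequence to its nearest other member was 94.6%, and 36 members had a neighbour at 97% or more. Iglv3 is set apart, with 57.6% identity to Iglv1 and no 50-base window in common with any other member. Iglv1 and Iglv2 are 96.9% identical and share 25.2% of their windows with another member. Ighv1-52 and Ighv1-69 have the same last 90 bases, and Ighv1-74 differs from both by 1 base in that stretch. Windows found in another member made up 67.2% of Ighv1-52, 40.4% of Ighv1-69 and 32.8% of Ighv1-74, against 0.66% of Ighv1-9, 3.36% of Igkv12-46 and 0% of Ighv8-4 and Igkv19-93. How the authors' counting treated shared reads is not given in the sources used here, so counts of single Ighv1 segments are uncertain to that extent.

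Spleen and bone marrow carried variable-segment reads, and CD45-negative tumour cells carried none. The members summed to 2748 reads in the 8 spleen columns, 1381 in the 8 marrow columns and 0 in the 12 tumour columns. By column the level was 326 CPM at the lowest, 1058 at the median and 1487 at the highest in spleen. In marrow it was 216, 400 and 681 CPM. 5 spleen columns lay above every marrow column and 4 marrow columns lay below every spleen column. The tumour total of 3392202 counts with 0 reads allows at most 0.884 CPM (3 counts over the group), so the pooled spleen level of 1014 CPM was at least 1146-fold higher and the pooled marrow level of 395 CPM at least 446-fold higher. This bound covers counting error only. All 12 constant genes were also at 0 in tumour cells. The authors' deposited table of their tumour comparison, with 11340 genes, lists 0 variable segments and 0 constant genes. It keeps only part of the genes and comes from the same tumour samples, so this absence adds no separate evidence. The gate removes CD45-positive cells, B cells included, and in bulk samples fewer cells of a type and less RNA per cell cannot be told apart.

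**Figure D1:**
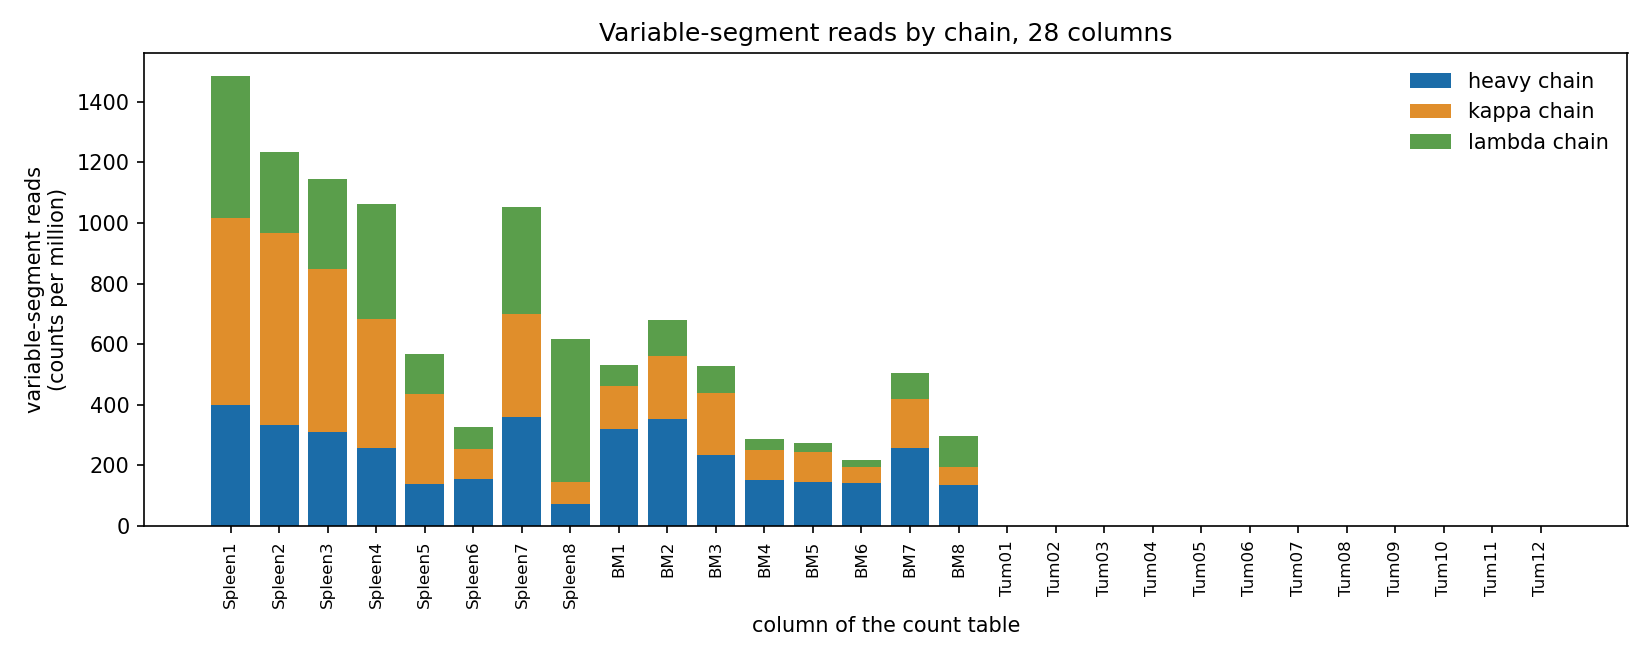
Variable-segment reads in CPM (vertical axis) for each of the 28 columns, stacked by heavy, kappa and lambda chain. Spleen columns reach 326 to 1487 CPM and marrow columns 216 to 681 CPM, and all 12 tumour columns are at 0.

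Reads were spread thinly over many segments. Of the 213 members, 177 had at least 1 read and 36 had none (24 heavy and 12 kappa). Spleen showed 163 segments and marrow 144, with 130 seen in both, 33 in spleen alone and 14 in marrow alone. 5 members had 100 or more reads over all columns, and 91 had 1 to 9. A column showed 22 to 118 segments in spleen and 43 to 84 in marrow, and the number with 10 or more reads was 1 to 13 and 0 to 6. After thinning each column to 80 member reads by expectation, the number of segments seen was 15.6 to 42.6 in spleen (median 38.1) and 36.5 to 45.02 in marrow (median 40.3), so the groups overlapped.

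Chain balance differed between the organs. Heavy-chain segments gave 27.1% of the members' reads in spleen (745 of 2748) and 52.0% in marrow (718 of 1381). Kappa gave 42.3% and 31.5%, and lambda 30.6% and 16.5%. The heavy share by column was 11.9% at the lowest, 26.8% at the median and 46.9% at the highest in spleen, and 44.3%, 52.0% and 65.0% in marrow. 7 spleen columns lay below every marrow column. Spleen 6 was the exception at 46.9%, with an exact 95% interval of 35.7% to 58.3% from 81 reads. Without spleen 6 and spleen 8 the spleen median was 26.8%. These shares are descriptions of counts over the members and carry no test.

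The share difference came with light-chain levels that differed more than heavy-chain levels. Heavy-chain segments summed to 73.0 to 398 CPM in spleen (median 282) and 135 to 351 CPM in marrow (median 192), and the ranges overlapped almost throughout. Kappa segments summed to 73.0 to 635 CPM in spleen (median 384) and 54.1 to 211 CPM in marrow (median 121), with 6 spleen columns above every marrow column. Lambda segments summed to 72.4 to 472 CPM in spleen (median 325) and 21.6 to 119 CPM in marrow (median 79.2), with 7 spleen columns above every marrow column. Within heavy and kappa reads alone, the heavy share was 31.3% to 60.3% in spleen and 53.3% to 72.2% in marrow.

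Relative to the constant genes that complete each chain, heavy-chain segments were also higher in most marrow columns. Heavy variable reads per 100 heavy constant reads were 4.93 to 19.9 in spleen (median 7.74) and 16.2 to 34.9 in marrow (median 22.1). 7 spleen columns lay below every marrow column and 6 marrow columns above every spleen column, with spleen 6 again the highest of its group. Without spleen 6 and spleen 8 the highest spleen value was 9.43, below every marrow column. Kappa variable reads per 100 reads of Igkc, the kappa constant gene, were 12.6 to 21.3 in spleen (median 15.4) and 15.2 to 28.6 in marrow (median 21.1), and 4 columns of each organ lay outside the range of the other. Ighm reads per 100 Igkc reads overlapped, at 92.0 to 133 in spleen and 85.7 to 164 in marrow. Lambda variable reads per 100 lambda constant reads were far higher than for the other chains, at 96.8 to 792 in spleen and 66.7 to 358 in marrow, over only 7 to 132 lambda constant reads per column.

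**Figure D2:**
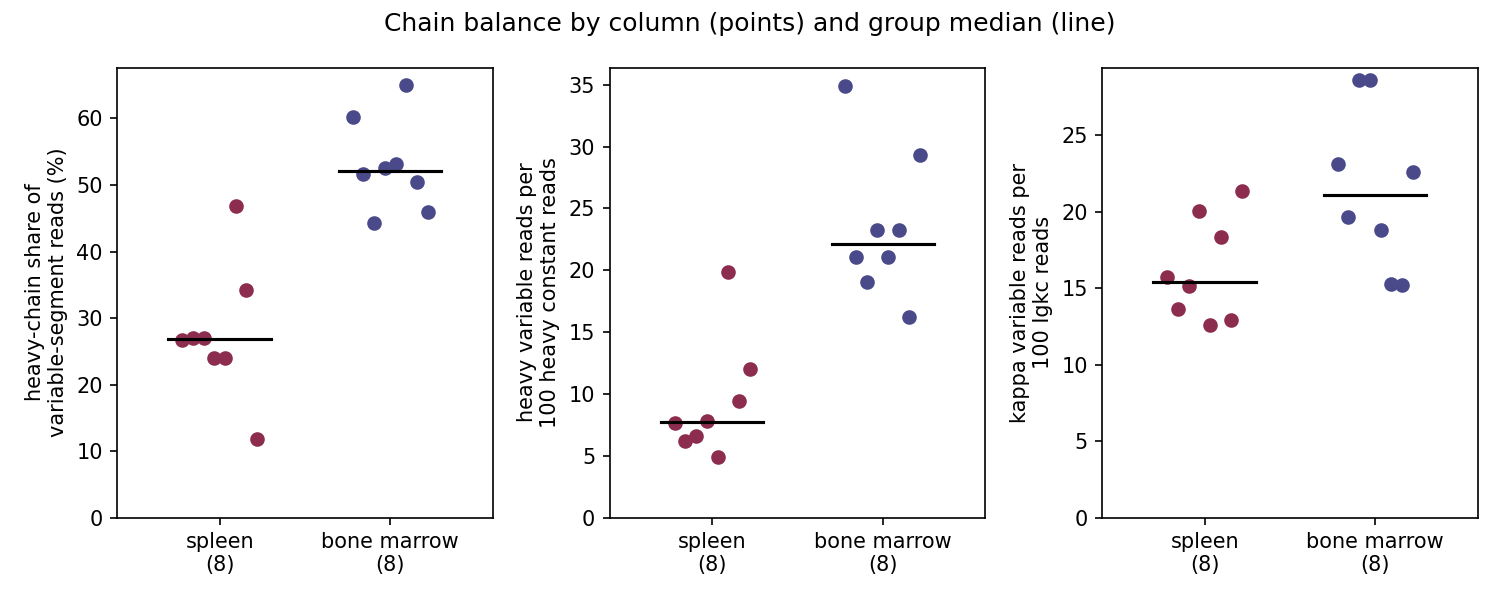
Heavy-chain share of variable-segment reads in percent (left), heavy variable reads per 100 heavy constant reads (middle) and kappa variable reads per 100 Igkc reads (right), 8 columns per organ as points and the median as a line. Spleen medians of 26.8%, 7.74 and 15.4 stand beside marrow medians of 52.0%, 22.1 and 21.1.

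Constant genes and B cell receptor genes set the frame for these levels. edgeR's quasi-likelihood test of marrow minus spleen over the 4239 genes that passed its filter on low counts called 748 genes lower in marrow (17.6%) and 850 higher (20.1%) at an adjusted p below 0.05. Of 12 constant genes, 8 passed the filter and 6 were lower in marrow, with a median log2 fold change of -2.0 against 0.04 over all genes tested. Igkc was at -2.10 (SE 0.41, adjusted p = 3.2e-04) and Ighm, the constant gene of IgM, at -1.90 (SE 0.40, adjusted p = 6.8e-04). Ighd, which marks mature naive B cells through IgD, was at -2.78, while Igha (-0.68, adjusted p = 0.265) and Ighg3 (-1.51, adjusted p = 0.0625) were not called. The mature B list had 6 of 10 genes tested and 6 lower (median -2.37), among them Cd79a at -1.76. Of the receptor signalling list, 4 of 6 tested genes were lower.

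Genes of the recombination and early B cell lists were sparse. Of 12 V(D)J recombination genes, 4 passed the filter and 3 were higher in marrow, Hmgb2 (1.59), Dclre1c (1.09) and Xrcc6 (0.65), which act in many cell types. The recombinase genes Rag1 and Rag2 did not pass, and neither did any gene of the pro-B and pre-B list, whose sum was 4.02 to 75.0 CPM in spleen and 16.2 to 69.0 CPM in marrow. Surrogate light chain genes summed to 4.02 to 19.7 CPM in spleen, where Igll1 and Vpreb2 were at 0, and to 3.56 to 28.2 CPM in marrow. In the class switch and hypermutation list, Apex2 was lower in marrow (-3.95). Apex2 overlaps Alas2, a haem synthesis gene of red cells that was also lower (-2.71), on the opposite strand. Among antibody secretion genes Jchain was lower (-2.08) and Edem1 higher (1.02). All 8 granulocyte genes were higher and 4 of 4 tested erythroid genes lower in marrow, and the part of these cell mixtures in the segment results was not tested.

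Iglv3 dominated the reads of the members. Whether its reads come from joined antibody transcripts was not tested. Iglv3 was the segment with the most reads in all 8 spleen columns and in 6 of 8 marrow columns, with 746 and 178 reads. Its level was 64.4 CPM at the lowest, 282 at the median and 456 at the highest in spleen, and 10.8, 55.9 and 86.5 CPM in marrow. 7 spleen columns lay above every marrow column, and spleen 6 was the exception. Per exon length its mean was 715 RPKM (CPM per kilobase of exon) in spleen, against 91.9 for Ighv1-9, the next segment by mean. In marrow it was 139 RPKM, against 67.8 RPKM for Ighv1-74.

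Iglv3 was also the only member that passed the filter on low counts, and it was lower in marrow with a log2 fold change of -2.47 (SE 0.38, edgeR adjusted p = 1.78e-05). Without spleen 6 and spleen 8 the log2 fold change was -2.53. Iglc1, a lambda constant gene, fell by 2.16 on the log2 scale in the same fit. Iglv3 made up 83.3% to 97.1% of lambda segment reads in spleen and 50.0% to 100% in marrow.

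Dominance by this segment varied between columns. The leading segment took 19.2% of the members' reads at the lowest, 25.1% at the median and 74.1% at the highest in spleen, and 6.25%, 12.02% and 27.8% in marrow. Spleen 8 was the extreme, where Iglv3 gave 100 of 135 reads (exact 95% interval 65.8% to 81.2%). Its Iglv3 level of 456 CPM was the highest of all columns, while its Ighm and Igkc levels of 456 and 342 CPM were the lowest of the spleen group. In marrow column 8 Iglv3 gave 37 of 133 reads (20.4% to 36.3%). Ighv1-69 led in marrow column 1 with 24 reads and Ighv1-74 in marrow column 6 with 5 reads.

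The inverse Simpson number, which gives the number of equally used segments that would show the same concentration, was 1.81 to 19.9 in spleen (median 12.9) and 10.5 to 32.3 in marrow (median 24.5). 7 marrow columns lay above every spleen column. Without spleen 6 and spleen 8 the spleen range was 8.69 to 19.9. Without Iglv3 the medians were 31.9 in spleen and 30.6 in marrow, and the ranges of 13.8 to 51.4 and 25.6 to 41.1 overlapped. Without Iglv3 the lambda share had a median of 5.05% in spleen and 4.73% in marrow, and the heavy share 36.1% and 59.3%. The share of the leading segment then had a median of 8.68% in spleen and 7.80% in marrow.

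The other segments named by abundance were at a small fraction of Iglv3. Ighv1-9 had the next highest mean in spleen (32.3 CPM), which rested on spleen 7. Without that column its mean was 20.98 CPM, below the 24.9 CPM of Iglv1. Ighv1-9 was at 4.39 CPM at the lowest, 13.4 at the median and 111 at the highest, and had 0, 5.41 and 48.4 CPM in marrow. Iglv1 had 8.05, 22.2 and 56.4 CPM in spleen and 0, 12.9 and 27.0 CPM in marrow. Igkv12-46 had 0, 19.6 and 59.1 CPM in spleen and 0, 9.86 and 26.4 CPM in marrow, and Igkv19-93 had 0, 13.7 and 95.0 CPM in spleen and 0, 8.04 and 26.9 CPM in marrow. For each of these 4 segments the columns of both organs overlapped. Iglv2, named to complete the lambda set, was its scarcest segment, with 23 reads in spleen and 13 in marrow.

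To reach segments below the filter, the same test was run on every gene with at least 1 read, 22736 genes, of which 12.4% were called lower and 8.42% higher in marrow. Of the 177 members with reads, 52 were called lower (13 heavy, 37 kappa and 2 lambda) and 6 higher, and all 6 were heavy-chain segments. Heavy-chain segments called higher were thus 6 of 87, kappa segments 0 of 87 and lambda segments 0 of 3. The 6 of 177 called higher are a smaller share than over all genes. Most of these segments rest on few reads, and many entered through the organ where they are high, so these counts are a description. With a minimum of 10 reads, 32 of 86 members were called lower and 5 higher, against 15.5% and 12.2% of all genes. With DESeq2, 15 of the 99 members with an adjusted p were called lower and 4 higher, against 13.5% and 9.62% of all genes with one. Without spleen 6 and spleen 8, 55 of 175 were called lower and 4 higher, against 13.2% and 9.79%.

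The 5 members with the largest fall in that test were all kappa segments. Igkv1-135 had 51 reads in spleen and 5 in marrow, at 0 CPM at the lowest, 12.7 at the median and 70.3 at the highest in spleen and 0, 0.784 and 4.43 CPM in marrow. Its log2 fold change was -3.48 (SE 0.58, edgeR adjusted p = 6.03e-08), and it was called lower under each of 23 alternative settings. Igkv8-19 (-3.49) and Igkv2-109 (-3.39) each had 17 reads in spleen and 1 in marrow. Igkv4-86 had 12 reads in spleen and Igkv2-112 had 9, and neither had any in marrow, so no p is given for them. Of the 52 members called lower, 25 had a log2 fold change below -2.5, some of them without a read in marrow. The share of all genes beyond that fold was not counted, so this number is a description only.

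Among the abundant segments, Ighv1-9 was lower in marrow (log2 fold change -2.02, SE 0.38, adjusted p = 2.77e-06), as were Igkv12-46 (-1.48, adjusted p = 0.00107), Igkv19-93 (-1.40, adjusted p = 0.00284) and Iglv1 (-1.27, adjusted p = 0.00519). 3 of these calls were lost with DESeq2's Wald test, at an adjusted p of 0.0606 for Ighv1-9, 0.115 for Igkv12-46 and 0.18 for Igkv19-93. Leaving out spleen 1 gave -0.66 (adjusted p = 0.341) for Igkv19-93 and -1.02 (adjusted p = 0.0514) for Iglv1. Igkv19-93 also lost its call with a minimum of 10 reads (adjusted p = 0.0656). Iglv2, at -1.05 (adjusted p = 0.197), was not called.

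The segments called higher in marrow were led by Ighv1-74 and Ighv1-69. Ighv1-74 had 10 reads in spleen and 80 in marrow. It was at 0 CPM at the lowest, 1.64 at the median and 8.91 at the highest in spleen and at 13.3, 24.4 and 42.7 CPM in marrow, so each marrow column lay above each spleen column. Its log2 fold change was 2.54 (SE 0.48, edgeR adjusted p = 2.6e-06). Ighv1-69 had 14 and 76 reads, at 0, 2.95 and 12.8 CPM in spleen and 7.12, 15.5 and 60.3 CPM in marrow, with 5 marrow columns above every spleen column. Its log2 fold change was 2.07 (SE 0.46, adjusted p = 8.59e-05).

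The remaining 4 were chosen after their values were seen. Ighv1-52 had 2 reads in spleen and 27 in marrow, a pooled ratio of 10.5 (exact 95% counting interval 2.63 to 90.8, adjusted p = 0.00237), and was seen in 8 of 8 marrow columns. Ighv8-4 had 0 reads in spleen and 20 in 6 marrow columns, at least 5.17-fold higher over a floor of 3 counts in the spleen group. Ighv8-6 had 3 and 20 reads, a pooled ratio of 5.17 (counting interval 1.53 to 27.1, adjusted p = 0.041). Ighv1-56 had 0 and 6 reads. Ighv8-4 and Ighv1-56 entered the test through marrow alone, so no p is given for them. Ighv1-52, Ighv1-69 and Ighv1-74 were called higher under each of 23 alternative settings. Ighv8-6 kept its call under 12 of 23 and lost it without spleen 6 and spleen 8 (edgeR adjusted p = 0.0702), as did Ighv1-56.

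**Figure D3:**
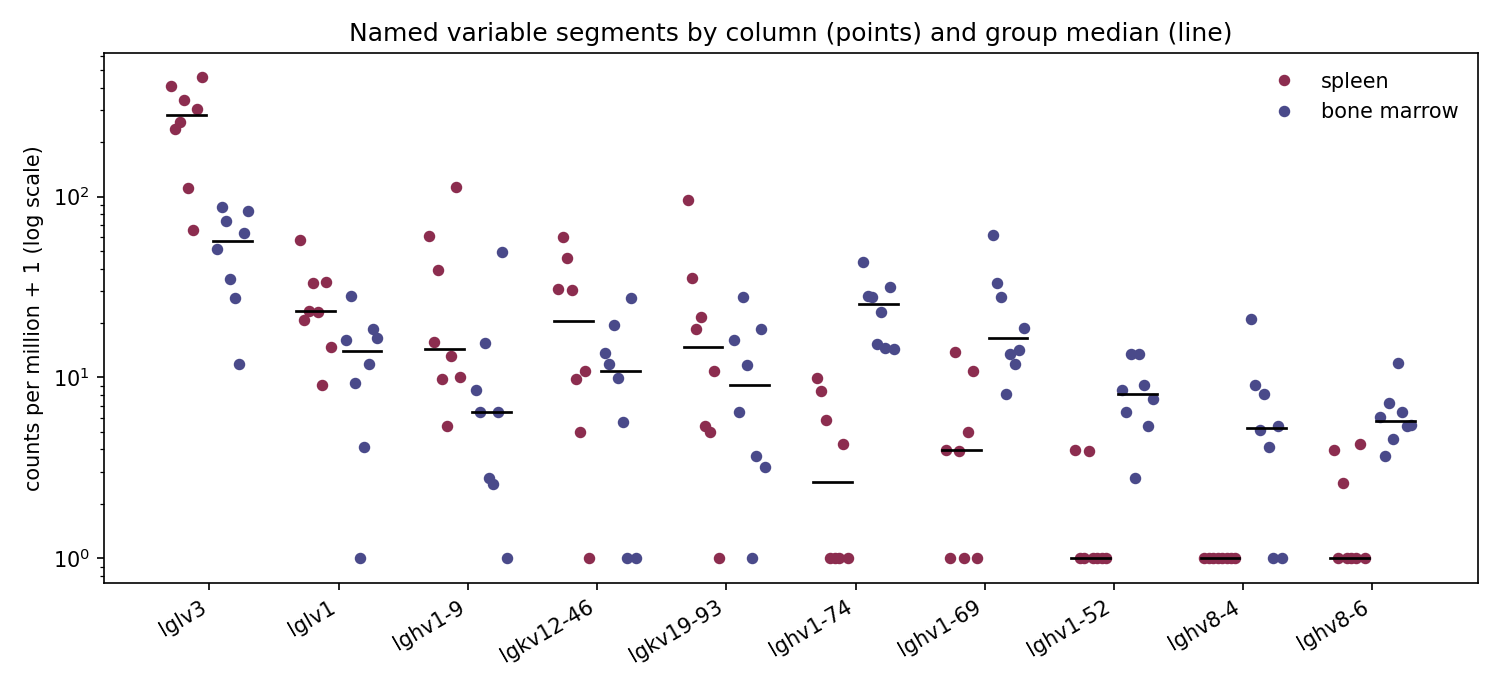
Level of 10 named segments in CPM plus 1 on a log axis, 8 spleen and 8 marrow columns as points and the median as a line. Iglv3 lies between 64.4 and 456 CPM in spleen and between 10.8 and 86.5 CPM in marrow, and Ighv1-74 is higher in every marrow column than in any spleen column.

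Most of the heavy segments called higher in marrow lie in the part of the locus far from the constant genes. Heavy-chain segments are arrayed over chromosome 12, and the 111 members were split by order into 3 sets of 37, a split made after the data had been seen. Of the 6 called higher, 5 lie in the farthest set, and Ighv8-4 is the last member of the middle set. These are 6 of 87 heavy-chain segments tested, a smaller share than the 8.42% of all genes called higher. Ighv8-6 and Ighv1-56, both in the farthest set, lost their calls without spleen 6 and spleen 8. The positions of the called segments are thus a description. The 37 farthest segments gave 33.7% of heavy-chain reads in spleen (251 of 745) and 58.1% in marrow (417 of 718). By column their share was 22.99% at the lowest, 32.6% at the median and 39.2% at the highest in spleen, and 48.3%, 59.1% and 63.4% in marrow, so the columns of the organs did not overlap. The 37 in the middle gave 47.7% in spleen and 28.7% in marrow, and the 37 nearest gave 18.7% and 13.2%.

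Single segments carried part of this. Without Ighv1-69 and Ighv1-74 the share of the farthest set was 22.1% to 37.5% in spleen (median 30.7%) and 37.5% to 53.5% in marrow (median 46.5%), so the ranges met. Without Ighv1-9, which lies in the middle set, it was 23.8% to 44.7% in spleen and 54.2% to 64.1% in marrow. Leaving out spleen 6 and spleen 8 left the spleen range of the farthest set at 22.99% to 39.2%. Ighv1-80, at the far end and chosen after its values were seen, had 55 reads in spleen and 28 in marrow, so the far set did not move together in reads.

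**Figure D4:**
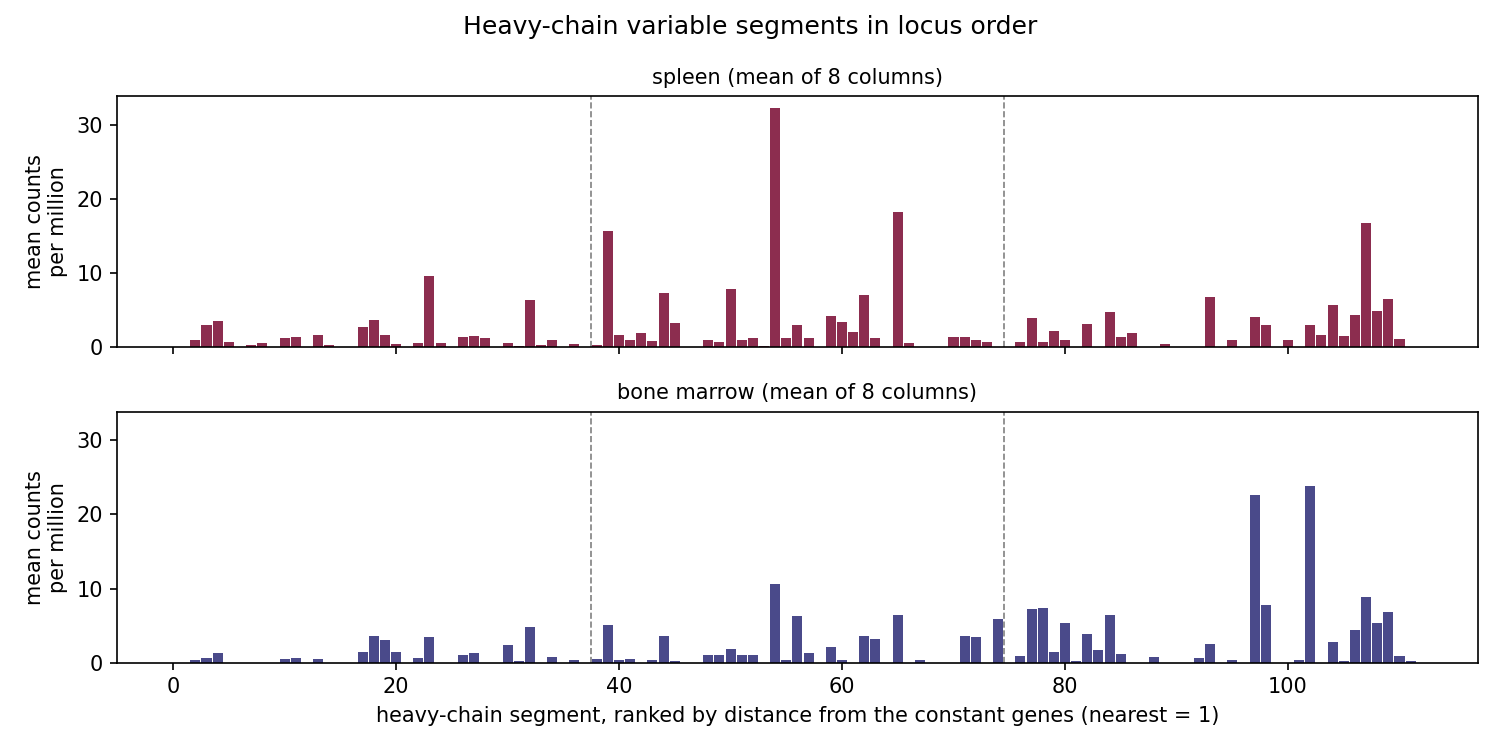
Mean level of each of the 111 heavy-chain segments in CPM, in order of distance from the constant genes, for spleen (top) and bone marrow (bottom). Dashed lines part the 3 sets of 37. The tallest spleen bar is Ighv1-9 at 32.3 CPM and the tallest marrow bars are Ighv1-74 at 23.8 CPM and Ighv1-69 at 22.6 CPM.

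**Figure D5:**
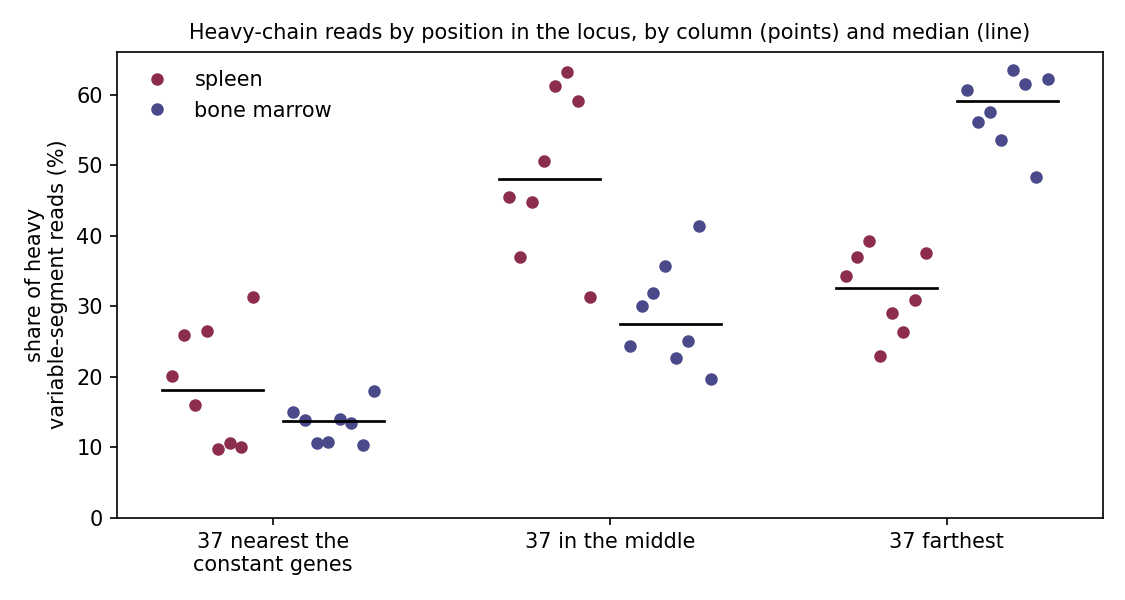
Share of heavy-chain variable reads in percent for the 37 segments nearest to the constant genes, the 37 in the middle and the 37 farthest, 8 columns per organ as points and the median as a line. For the farthest set the spleen columns lie between 22.99% and 39.2% and the marrow columns between 48.3% and 63.4%.

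By family, named after sequence similarity, Ighv1 gave most heavy-chain reads in both organs, 64.7% in spleen (482 reads over 44 seen members) and 68.1% in marrow (489 reads). The Ighv8 family of 9 members, picked out after its values were seen, gave 29 reads in spleen and 91 in marrow. Its share of heavy-chain reads was 0% to 6.36% by column in spleen and 10.0% to 15.5% in marrow, and the columns did not overlap. In every other heavy-chain family the ranges of the organs overlapped. The family holds Ighv8-4 (0 reads in spleen and 20 in marrow) and Ighv8-6 (3 and 20), both called higher above. Its share without them was not computed. Ighv3 and Ighv5 had 44 and 38 reads in spleen and 22 and 22 in marrow. Among kappa families Igkv4, with 23 members all of which were seen, led in spleen with 209 reads (18.0% of kappa reads) and had 54 in marrow (12.4%). Igkv12 had 155 reads in spleen and 60 in marrow, close to the same share of kappa reads (13.3% and 13.8%). Igkv5 had 76 and 55 reads, 6.54% and 12.6% of kappa reads, with column ranges of 2.40% to 13.6% and 3.85% to 21.8% that overlapped.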

How the data were processed

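Whole spleen, whole bone marrow and sorted CD45-negative tumour cells were read from the table of raw counts per gene that the authors deposited. Per the labels' protocols, libraries were made with the TruSeq Stranded mRNA kit and read as paired ends of 50 bp. Per the submitters' processing notes, HISAT2 and edgeR were used with the builds GRCm38 and mm10. Neither a version nor the counting program and its strand setting was found in these sources. A second table from the authors, on tumour cells, gives per gene 2 log2 columns (fold change and mean CPM, per the file headers), an F score and p-values, per the file headers. It was searched for members only.

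Columns were assigned to tissues by name. 20 further columns of per-sample values (lymph node) do not name a group and were not used in any step, so 3 of 4 planned comparisons were not run. Column totals, which are counts placed on genes and not reads sequenced, were 54117 to 637985. These totals are far below the number of reads stated for the libraries, and the reason was not tested. CPM use column totals. Marrow minus spleen was tested with edgeR 4.0.16 (R 4.3.3; TMM, filterByExpr, glmQLFit and glmQLFTest, Benjamini-Hochberg over all genes tested). DESeq2 1.42.0, other scalings, filters, exon-length division, pseudogenes, overlapping members, thinning and leaving out columns were alternatives. On simulated counts for this comparison (4239 genes) edgeR recovered 75% of 2-fold and 100% of 4-fold changes with 7 false calls. Iglv3 is the only member among these genes. The simulation therefore does not cover the test of every gene with at least 1 read. No 2 columns of a group agreed within sampling noise (0 of 28 pairs in spleen and in marrow, 0 of 66 in tumour cells). Intervals are exact (Clopper-Pearson, 95%), floors are 3 counts, and both cover counting error only. Coding sequences came from GENCODE M21 and were compared by edit distance. Tables were handled in Python 3.11.15 with pandas 2.3.3, scipy 1.17.1, numpy 2.4.6 and matplotlib 3.10.9.

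Segments named are the 5 with the highest mean CPM in each organ, those leading in 2 or more columns, and the 5 called members with the largest change each way (mean log2 CPM 0 or more). The last part of this rule was applied, after the data had been seen, to the test of each gene with at least 1 read as well. There the level limit left out no member, since even a segment with 1 read had a mean log2 CPM of 2.40. Other names are marked where they appear. Some genes of these lists are not reported here. Members and gene lists were chosen with earlier results of these data known.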

Additional observations from a re-analysis of the deposited data

Results flagged for a closer look

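Extreme columns were sought in 26 sets of 8 values by the gap to the nearest other column, of which chance gives about 1 in 20, and 7 were found, in spleen 8 and marrow column 8. In spleen 8 the lambda share was 76.3% (next highest 35.6%) and the leading segment took 74.1% (next highest 32.0%). Lambda variable reads per 100 lambda constant reads were 792 there (next highest 257), and the expected number of segments at 80 reads was 15.6 (next lowest 34.8). In marrow column 8 the lambda share was 34.6% (next highest 17.5%), the leading segment took 27.8% (next highest 13.7%) and the inverse Simpson number was 10.5 (next lowest 22.8). The measures are not independent, since Iglv3 enters each of them. The ratio of mt-Nd6 to heavy-strand mitochondrial genes was 277 in spleen 8 and 159 in marrow column 8, the highest of each organ, and its part in these values was not tested.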

How the results depend on the processing

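Iglv3 was the 1 member called in marrow minus spleen under each other scaling, DESeq2, 28 columns in 1 fit, and each left-out column (1 to 1 call), and without spleen 6 and spleen 8. Testing each gene with at least 1 read gave 58 calls, because 177 members then entered. In that test the 52 lower calls became 32 with a minimum of 10 reads and 15 with DESeq2, where fewer members had an adjusted p. They were 39 to 53 when 1 column was left out, where 10.8% to 13.3% of all genes were called lower and 7.3% to 9.36% higher. Higher calls were 4 to 6 under all settings, and 1 kappa segment, Igkv14-126 (named after its values were seen), joined them without spleen 5 or without marrow column 4. Leaving Iglv3 out moved the spleen medians to 58.32% kappa, 5.05% lambda and an inverse Simpson number of 31.87, and the marrow medians to 59.33% heavy and 4.73% lambda. It also took the leading-segment median from 25.07% to 8.68% in spleen and from 12.02% to 7.80% in marrow. Other settings for summed level, chain shares and dominance moved medians by less than 1 SD. The settings within the test of each gene with at least 1 read, the 28-column fit, and those without Iglv3 or without spleen 6 and spleen 8 were chosen after seeing the data. Over all genes, calls numbered 1598 in the filtered test and 4726 without the filter, and 2395 without spleen 6 and spleen 8.

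Summed CPM has no value under thinning or length division. The 48-column fit and 3 comparisons with lymph node were not run because the column names do not separate its groups. Spleen and marrow columns carry the same running numbers, which tie no column to a title. Deviations from the group means, over 4239 genes, correlated above 0.1 in 5 of 8 same-numbered pairs (-0.028 to 0.477). 4 of 8 spleen columns and 5 of 8 marrow columns correlated best with their own number. Whether same-numbered columns share a mouse cannot be told from this, and the main tests treat all columns as independent. With a replicate block on the running number, chosen after seeing the data, Iglv3 remained the 1 call of the filtered test. The test of each gene with at least 1 read then gave 21 lower and 4 higher calls among 177 members, against 52 and 6 without the block. Over all genes, 8.36% were called lower and 8.20% higher with the block, against 12.4% and 8.42% without it. Low counts limit most segments: 127 of 213 members had under 10 reads in all, of which 36 had none.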
